A study of Mus musculus with 5 samples.

Results

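The transcriptome of CD4+ T cells taken from the inflamed colonic lamina propria (LP) was compared with that of CD45RBhigh naive T cells, the population used to start the colitis. In this transfer model, CD4+CD45RBhigh cells from the spleen of BALB/c mice were injected into Rag1-/- recipients, and LP cells were collected 6 weeks later. Mice were 8 to 12 weeks old at use. LP cells were sorted as CD3+CD4+ into a fraction that bound a CXCL16-Fc fusion protein (CXCR6 Hi in the labels, CXCR6+ here, n = 2 arrays) and a fraction that did not (CXCR6 Lo, CXCR6- here, n = 2 arrays). The naive group was 1 array of CD3+CD4+CD45Rb Hi cells, for which 1 label names spleen and another the LP of healthy mice. All 5 arrays carry the BALB/c background. The number of mice behind each array is not given in the sources used here. Rag1-/- hosts make no mature T or B cells of their own but keep their epithelial, stromal, myeloid and innate lymphoid cells.

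Genes were retained if their signal was at least 4 on the naive array or on all 4 LP arrays. Signals are linear and scaled so that the median probe set of each array equals 1. Of 18193 genes, each represented by its probe set of highest mean signal, 8529 were retained. Of these, 5802 met the rule on both sides, 2309 through the naive array alone and 418 through the LP arrays alone. The rule was sharp at its edge, with Cby1 just inside at 4.0 on the naive array and Ankle1 just outside at 3.997. Among the retained genes 946 were higher in LP cells (11.1%), 2826 were lower (33.1%) and 4757 did not pass the test. Genes that entered through the LP arrays alone lay higher on all 4 of them. Those that entered through the naive array alone had at least 1 lower LP array. These counts therefore describe the selection and support nothing.

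**Figure D1:**
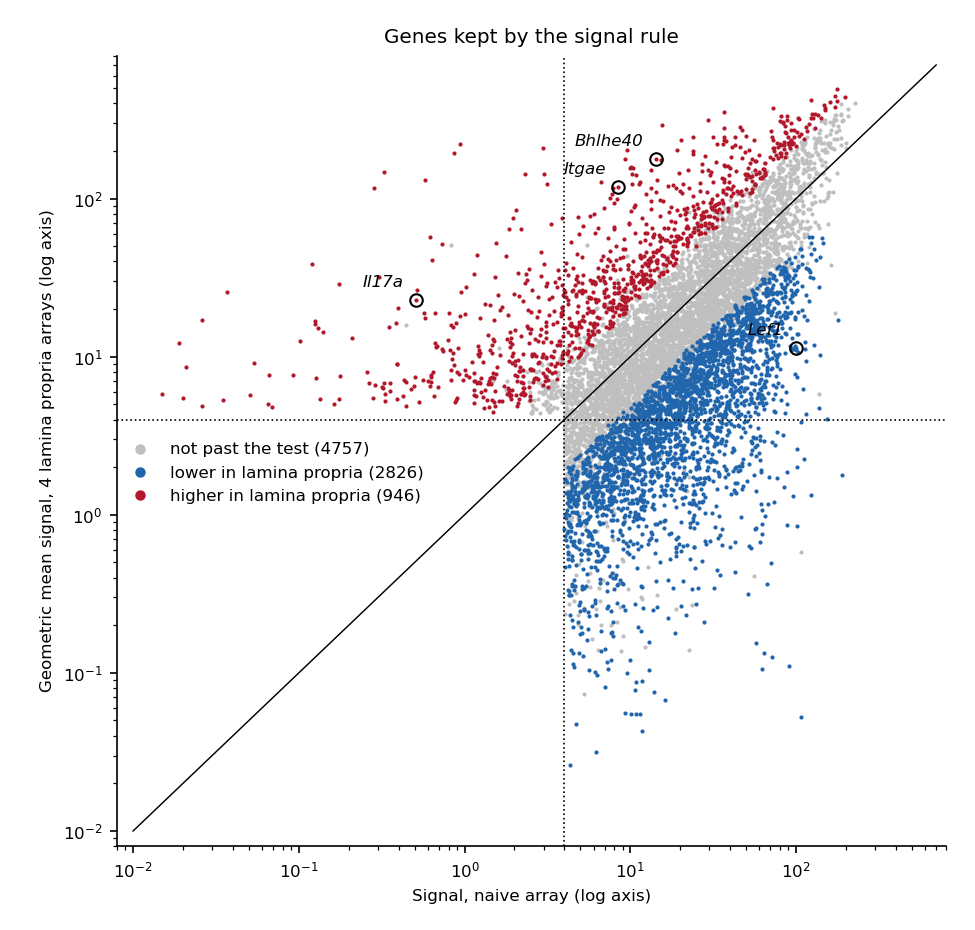
Each of the 8529 retained genes by its signal on the naive array (x, log axis) and the geometric mean of its signals on the 4 LP arrays (y, log axis), with dotted lines at the signal of 4, a diagonal of equal signals and colors for genes past the limma test in either direction. The 4 marker genes Itgae, Il17a, Bhlhe40 and Lef1 are circled, the first 3 above the diagonal and Lef1 below it.

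A naive CD4+ T cell recirculates through lymphoid organs in a resting state held by transcription factors such as LEF1, FOXP1 and BACH2. Antigen recognition activates the NF-kB, AP-1 and MYC pathways, and the cell grows, divides and becomes an effector. In the colon, effector cells that secrete IL-17A and IFN-gamma can settle through the integrin chain CD103, the product of Itgae, which binds E-cadherin on epithelium.

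Differences were tested with limma on log2 signals over the 3 groups, with p-values adjusted by Benjamini-Hochberg over all 18193 genes and a threshold of 0.05. The LP value is the mean of both subsets. The naive group has 1 array and gives no spread of its own, so its spread was taken to equal that of the LP groups. The arrays are labelled biological replicates, but nothing says how many animals they stand for, and each p-value reflects no more than the scatter of these arrays. Without either CXCR6- array 0 genes passed by limma (7530 and 7545 at an unadjusted p under 0.05), so every call below needs both of them to pass, although sizes moved little (the difference of Il17a was 5.52 or 5.47 without CXCR6- replicate 1 or 2, against 5.49). Over the retained genes the median log2 difference was -0.65, and most members of many lists were retained. Over all genes, 2756 were higher (15.1%) and 3414 lower (18.8%), with a median log2 difference of -0.14. These shares are the ones to set beside each list count below. The share of calls that were higher was 44.7% as deposited, 56.4% with quantile normalization, 66.4% with arrays centered on their median over all genes and 72.9% with arrays centered on the retained genes. Under all 4 of these scalings, 2055 genes were higher (11.3%) and 1706 lower (9.38%). Every scaling other than the deposited one moved the median of all genes up, to -0.0013, 0.41 and 0.60, so directions are relative to the scaling. Passing under all 4 is therefore an easier condition for higher than for lower calls. The centering on retained genes also draws on the signal rule. Beside the genes below stand some of the settings with all 5 arrays under which a call ended. They are the averaged probe sets of a gene, no probe sets of the _s_at and _x_at kind (which can match several transcripts), the other scalings, a floor at a signal of 1 and the LP arrays as 1 group. Calls that ended with a replicate term in the model (the replicate block) or with the methods' t-test are not marked. A gene without a note may have lost its call there, and the last section gives the counts.

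Several features of the arrays moved with the comparison. Gapdh signals at the 3' end exceeded those at the 5' end by ratios of 2.81 to 6.96 in LP and 1.51 in naive RNA, and the median signal of the retained genes was 9.71 to 11.4 against 17.1. Xist had signals of 181 to 215 against 0.864, and the Y-linked gene Eif2s3y 1.59 to 3.41 against 53.5. LP cells came from collagenase digests and splenocytes from mechanical disruption. Tissue, sex, preparation and cell state cannot be told apart in this design.

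The 5 arrays carried T cell transcripts, but each side also carried those of other cells. Signals are listed below as the pair of CXCR6+ arrays, the pair of CXCR6- arrays and the naive array, each pair in replicate order, and differences are log2 values of LP minus naive. Cd3g, a chain of the T cell receptor complex, had 129 and 167, 97.8 and 93.7, and 105, and its difference of 0.17 was not past the test (limma adjusted p = 0.67). Cd3e, another chain, was 23.1 to 25.1 on the LP arrays against 86.1 and fell by 1.83 on the log2 scale (adjusted p = 0.0176). Cd28, the costimulatory receptor of naive and effector cells, was 215 to 230 against 33.5 and rose by 2.73 (adjusted p = 0.0124). Cd4 was 22.9 to 39.2 against 56.0, and its difference of -0.84 missed the threshold (limma adjusted p = 0.0776). Of 13 T cell identity genes, 2 were higher, 2 lower and 9 did not pass, with a median of 0.44. T cell genes were thus detected on all 5 arrays. In such bulk samples, fewer cells of a type and less RNA per cell cannot be told apart.

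The naive array went partly against its label. All 16 red cell genes that were listed after their values had been seen were higher on it. Klf1, a red cell transcription factor, had 33.4 there and 0.129 to 1.043 on the LP arrays, and the beta globin gene Hbb-b2 had 62.7 and 0.651 to 1.046. The heavy chain gene Ighm of B cells had 123 against 0.923 to 2.45 and the B cell receptor gene Cd79b 22.0 against 0.540 to 0.752. Ncr1, an activating receptor of NK cells, had 24.9 against 0.100 to 0.685, and the neutrophil gene S100a9 had 114 against 3.12 to 5.80. From the lists of other cells, 9 of 19 B and plasma cell genes were lower in LP cells and 2 higher (summed signal 296 to 411 against 566), and 3 of 10 NK, ILC and CD8 genes were lower and 1 higher (46.3 to 85.0 against 150). With 1 naive array, no result below can be given without it.

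The LP arrays in turn carried genes of the digested tissue. Dcn, a matrix proteoglycan of fibroblasts, had 41.5 to 86.4 against 2.19, and the keratin gene Krt8 of epithelium 9.36 to 29.6 against 0.387. Cd14, the endotoxin coreceptor of monocytes and macrophages, had 58.5 to 93.04 against 1.95, while Itgam, which marks the same lineage, had 0.199 to 0.493 against 0.573. Of 19 fibroblast and smooth muscle genes 11 were higher and 1 lower (summed signal 132 to 207 against 30.0), and of 29 epithelial genes 10 were higher and 2 lower (144 to 431 against 228). Of 26 myeloid genes 5 were higher and 4 lower (369 to 501 against 446), and of 12 endothelial genes 1 was higher and 3 lower (11.8 to 13.9 against 22.4). A set of 18 innate and matrix genes, chosen after their values were seen, was higher throughout, among them Il1b, the IL-1beta gene, at 75.5 to 142 against 13.4 and the neutrophil chemokine Cxcl2 at 164 to 254 against 0.944. The part of these cells in the T cell results below was not tested.

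**Figure D2:**
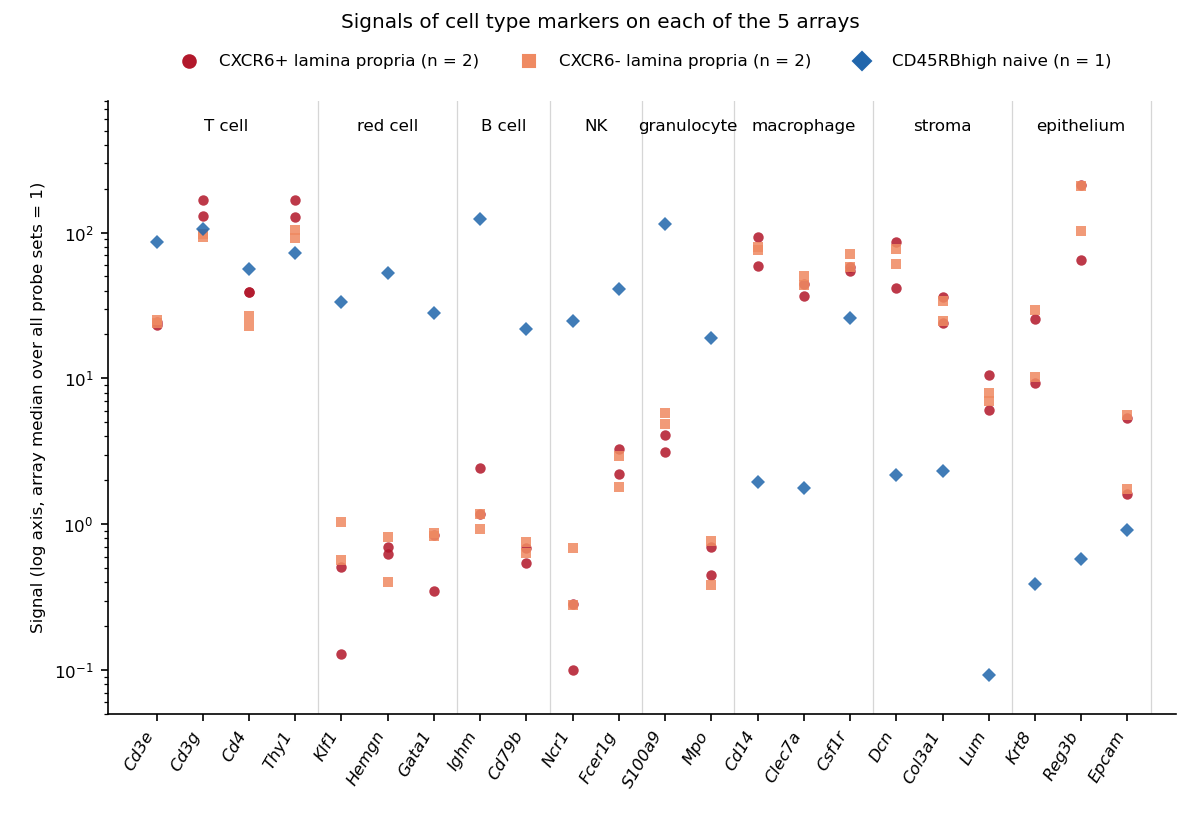
Signals of marker genes (log axis, array median 1) on the CXCR6+ LP arrays (circles, n = 2), the CXCR6- LP arrays (squares, n = 2) and the naive array (diamond, n = 1). The plotted red cell, B cell, NK cell and granulocyte genes lie highest on the naive array, and the plotted macrophage, stromal and epithelial genes lie higher on the LP arrays. The plotted genes are picked members. Of the whole lists, 5 of 26 myeloid genes were higher and 4 lower in LP cells, and 10 of 29 epithelial genes were higher and 2 lower.

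The 4 marker genes were given for this comparison, so their separation of LP from naive cells is a description and no support. Over all genes, 35.0% had every LP array above the naive array and 40.9% every LP array below it. Il17a was retained through the LP arrays alone, so each of them had to lie above the naive array. The same holds for every retained gene below with a naive signal under 4. Itgae had 116 and 134, 120 and 106, and 8.44. Bhlhe40, a transcription factor of effector and tissue T cells, had 210 and 225, 147 and 146, and 14.3. Il17a had 30.7 and 25.8, 18.1 and 19.4, and 0.510. The LP arrays were high in all 3 genes, and the CXCR6+ arrays were the higher of the subsets for Bhlhe40 and Il17a. Lef1 ran the other way at 14.99 and 8.80, 9.81 and 13.1, and 99.8. The log2 differences of Bhlhe40 (3.64) and Il17a (5.49) passed under every alternative setting that kept all 5 arrays. With 1 added to each signal the difference of Il17a was 3.99, since its naive signal lay below the array median. Lef1 fell by 3.13, and its call ended with the mean of its probe sets (-2.03, limma adjusted p = 0.0519) and with the floor (adjusted p = 0.0524).

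Because Il17a is the cytokine gene that names Th17 cells, its promoter is shown, 5' to 3'. It is the 250 bases before the most upstream RefSeq start, at chr1:20730655-20730904 on the plus strand of GRCm38.p6. A match to the letters TGANTCA, with N for any base, is in capitals. These letters are looser than the AP-1 consensus, which has C or G at N. The matched stretch has A there and is not a consensus AP-1 site.
Il17a: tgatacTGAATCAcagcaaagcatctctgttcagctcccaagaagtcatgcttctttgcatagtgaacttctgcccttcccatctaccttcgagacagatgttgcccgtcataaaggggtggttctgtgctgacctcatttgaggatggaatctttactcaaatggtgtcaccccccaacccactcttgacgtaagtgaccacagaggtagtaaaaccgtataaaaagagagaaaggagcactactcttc
The match begins 244 bases before the start. The letters TGANTCA, searched on both strands, were present in 6.85% of 27025 promoters of this length. The match is a description of letters, not of binding.

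Regulators of the naive state were lower in many cases but not throughout. All 24 measured members of that list were retained, and the retained genes had a median of -0.65 with 33.1% lower. Of the 24 members 12 were lower, 2 higher and 10 did not pass, with a median of -1.66 against -0.14 for all genes. Under all 4 scalings 10 were lower and 1 higher. Myb, a transcription factor that sustains stem-like T cells, had 7.29 and 6.41, 8.20 and 20.4, and 114, a log2 difference of -3.61 (SE 0.594, limma adjusted p = 0.0249). Foxp1, which holds naive cells in quiescence, had 14.1 and 8.5, 11.3 and 7.91, and 75.7, and Bach2, a repressor of effector genes, had 4.61 and 2.85, 6.97 and 5.93, and 21.8. Each LP array lay below the naive array, and Foxp1 fell by 2.90 and Bach2 by 2.17. Igfbp4, a gene of naive cells that encodes an IGF binding protein, fell by 2.10 from 88.6 to signals of 16.2 to 22.8. The lowest member was Dapl1 at 0.049 to 0.254 against 57.3, a difference of -8.54 that was -5.63 with 1 added to the signals. The calls of Myb, Foxp1 and Bach2 ended with the floor (limma adjusted p = 0.078, 0.0599 and 0.0683). That of Bach2 also ended with quantile normalization (-1.46, adjusted p = 0.0821) and with arrays centered on all genes (-1.62) or on the retained genes (-1.44). As the mean of probe sets Foxp1 was at -1.69.

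Other regulators of resting cells did not follow. Il7r, the IL-7 receptor that keeps naive and memory T cells alive, rose by 1.46 with signals of 308 to 369 against 125, and Ets1, a lymphocyte transcription factor, rose by 1.57 with 174 to 274 against 76.3. The call of Il7r ended with quantile normalization (0.61, limma adjusted p = 0.107) and that of Ets1 with the mean of its probe sets (0.52, adjusted p = 0.227). Satb1, a chromatin organizer of thymocytes, had 156 to 190 against 99.9, and Klf2, a factor of quiescence and egress, had 52.3 to 72.4 against 31.5. Neither of the last 2 passed (adjusted p = 0.0748 and 0.0776), though all LP arrays lay above the naive array for both. B cells and red cell precursors, whose genes were present on the naive array, can express some of these factors, and their share was not tested.

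Transcription factors of effector and resident cells were higher or did not pass. Of 23 members 9 were higher and 0 lower by limma, with a median of 0.79, and 8 remained higher under all 4 scalings. Crem, a cAMP responsive factor, had 208 and 239, 213 and 184, and 2.96, a difference of 6.15 (SE 0.263, adjusted p = 0.0119). Ahr, the aryl hydrocarbon receptor of Th17 and innate lymphoid cells, had 59.1 and 59.6, 64.2 and 60.6, and 6.15, a difference of 3.31. The 4 LP arrays agreed closely for Ahr, and both genes stood far above the naive array. Hif1a, the hypoxia factor, rose by 1.93 with 233 to 310 against 70.4, and Batf, an AP-1 factor needed for Th17 cells, by 1.59 with 24.2 to 49.8 against 11.6. Prdm1, which encodes Blimp-1, had 27.5 and 25.2, 10.4 and 9.49, and 7.49, a difference of 1.11 for the mean of both subsets, with 1.81 for CXCR6+ and 0.41 for CXCR6- cells. Id2, an inhibitor of E proteins, rose by 1.20, but its difference was -0.27 as the mean of its probe sets and its call also ended with quantile normalization (0.69), with the floor, without _s_at and _x_at probe sets and with the LP arrays as 1 group. As the mean of probe sets Crem was at 2.76, and Hif1a (1.77, limma adjusted p = 0.0576) and Prdm1 (adjusted p = 0.0538) did not pass. With the LP arrays as 1 group Prdm1 (adjusted p = 0.305) and Batf (adjusted p = 0.0528) did not pass, nor did Batf with the floor (adjusted p = 0.0566).

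Of 12 Th17 genes 8 were higher and 1 lower, with a median of 2.27, and 7 were higher under all 4 scalings. Beyond Il17a, Csf2, which encodes GM-CSF, had 21.3 and 25.6, 8.88 and 6.2, and 1.91. The order was CXCR6+ above CXCR6- above naive. Csf2 was retained through the LP arrays alone, so the rule fixed the place of the naive array. Csf2 rose by 2.79, a call that ended with the LP arrays as 1 group (limma adjusted p = 0.068). Il1r1, the receptor through which IL-1 sustains Th17 cells, rose by 3.50 with the wide error of 0.839, as CXCR6- replicate 2 had 8.51 and the other LP arrays 30.2 to 41.2. Il1r1 passed narrowly (adjusted p = 0.0495) and not with quantile normalization (adjusted p = 0.051), with the floor (adjusted p = 0.148) or when probe sets of the _s_at and _x_at kind were dropped (adjusted p = 0.0504). Stat3, the transducer of IL-6 and IL-23, rose by 1.25, but not past the test with the LP arrays as 1 group (adjusted p = 0.0613). Il1r1 is also a gene of fibroblasts and myeloid cells, and its origin was not tested.

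**Figure D3:**
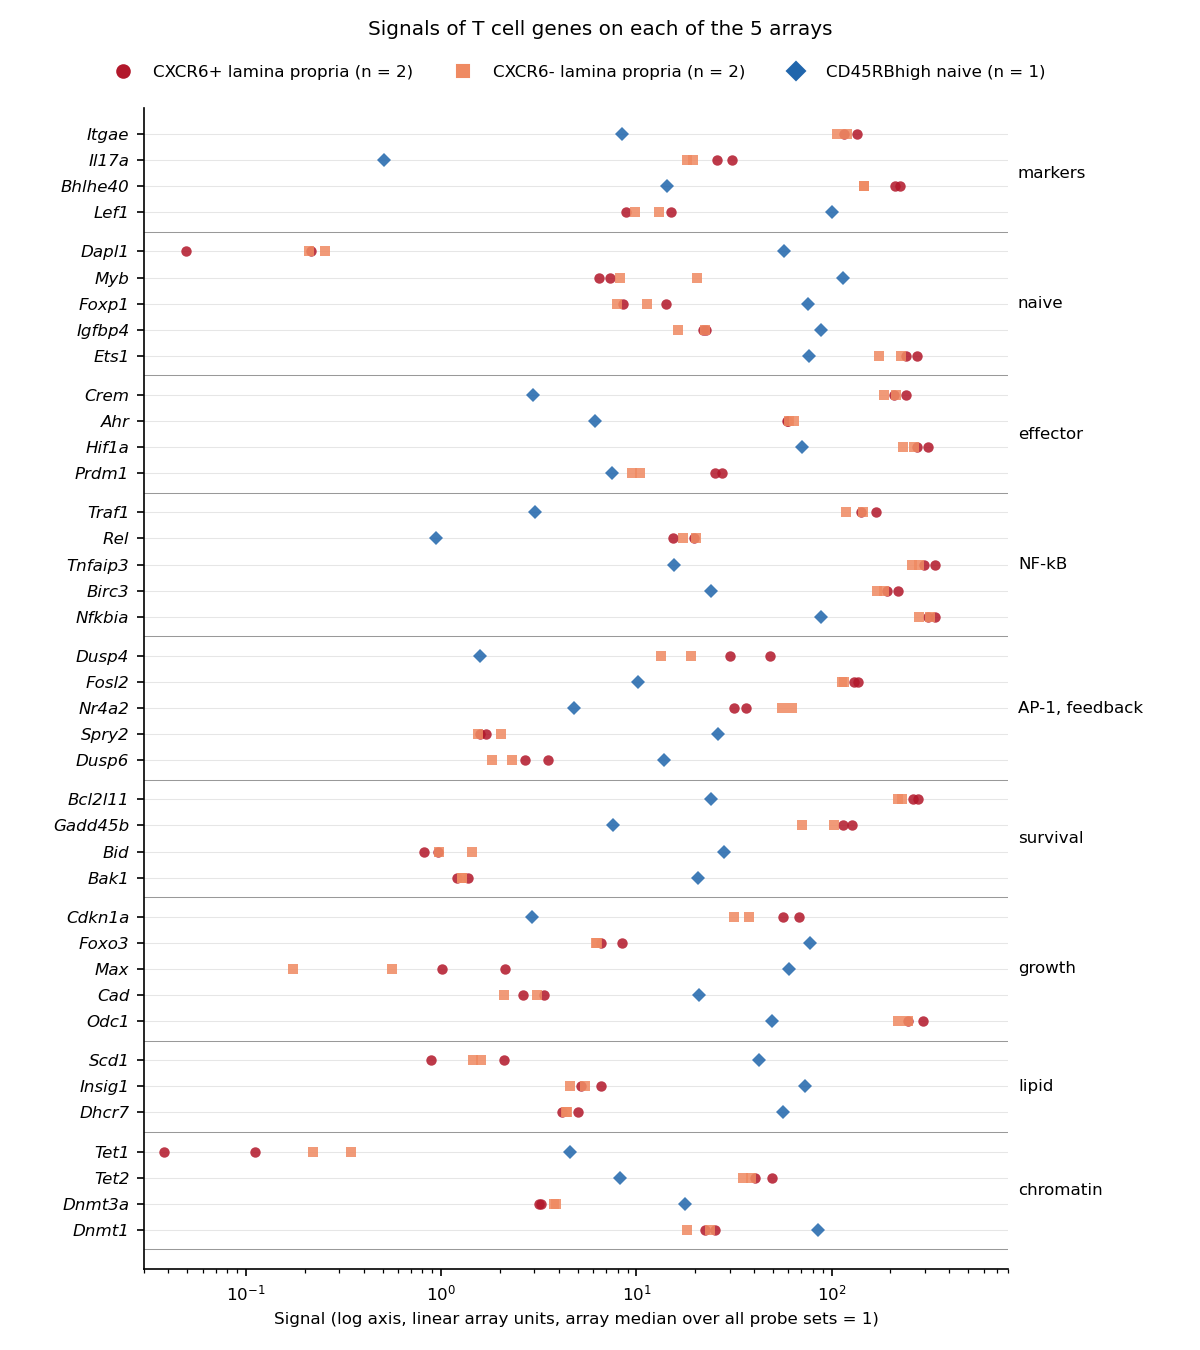
Signals of T cell genes (log axis, array median 1), grouped by role, on the CXCR6+ LP arrays (circles, n = 2), the CXCR6- LP arrays (squares, n = 2) and the naive array (diamond, n = 1). In every row the 4 LP points lie on 1 side of the naive point. They lie above it for the NF-kB genes and below it for Foxo3, Max, Scd1 and Dnmt3a. Rows with a naive signal under 4 could only lie above it, as the rule asked for 4 on every LP array.

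Most components of the NF-kB pathway rose, inhibitors and activators among them. NF-kB dimers are held in the cytoplasm by IkB proteins until a receptor signal destroys these, and the dimers then induce their own inhibitors. Of 18 members of the list 12 were higher and 0 lower by limma, with a median of 1.76 against -0.14 for all genes, and all 12 were higher under all 4 scalings. Among the subunits, Rel, which encodes c-Rel, had 15.4 and 19.7, 17.3 and 20.3, and 0.939. Its difference was 4.27 (SE 0.292, adjusted p = 0.0119), or 3.30 with 1 added to the signals. Nfkb2, the subunit of the noncanonical pathway, had 24.8 and 27.0, 12.7 and 12.4, and 7.83, a difference of 1.20 (adjusted p = 0.0348). With its probe sets averaged it did not pass (adjusted p = 0.0541), nor did it with the LP arrays as 1 group (adjusted p = 0.17).

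Among the inhibitors, Tnfaip3, which encodes the ubiquitin editing enzyme A20, had 298 and 338, 281 and 258, and 15.6, a difference of 4.23 (SE 0.251, adjusted p = 0.0119). Nfkbia, which encodes IkB-alpha, had 313 and 340, 320 and 280, and 88.3, a difference of 1.82. For both, the LP arrays lay close together and the naive array stood far below. Nfkbiz, a nuclear IkB protein that promotes Th17 genes, rose by 2.52 with 220 to 264 against 42.8. The A20 partner Tnip1 rose by 1.38 with 51.4 to 92.3 against 25.7, and Nfkbie, which encodes IkB-epsilon, by 1.92 with 66.6 to 108 against 21.7. Of the signaling proteins, Traf1, an adaptor of TNF receptors, had 118 to 168 against 3.01 and rose by 5.56. Birc3, an inhibitor of apoptosis at the same receptors, had 171 to 219 against 24.0 and rose by 2.99, and Map3k8, a kinase downstream of TNF and Toll-like receptors, had 13.1 to 46.5 against 3.12 and rose by 3.17. As the mean of probe sets Traf1 was at 3.44, and Nfkbia (0.54, limma adjusted p = 0.231), Nfkbie (1.15, adjusted p = 0.0616) and Tnip1 (adjusted p = 0.0525) did not pass. Nfkbie was at 0.37 without _s_at and _x_at probe sets, and with the floor Tnip1 (adjusted p = 0.0739) and Map3k8 (adjusted p = 0.0556) did not pass. The myeloid gene Cd14, the innate genes and the heat shock genes named elsewhere rose on the same arrays, and these cells use NF-kB too. Their part was not tested.

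The promoters of NF-kB genes that moved together are shown because 6 of the 15 list members with a promoter in the RefSeq table held the NF-kB consensus motif on either strand, against 7.03% of all 27025 promoters and 8.41% of the 14368 promoters of tested genes. Of 24 promoters of the AP-1, EGR and NR4A list, 5 held it. A narrower form of the motif, searched first, was held by 5 of the 15, by 1 of the 24 and by 4.02% of all promoters, and the consensus was taken up after those counts were seen. The list was made of NF-kB subunits and feedback genes, so these shares do not test anything about the arrays. Of its 18 members 12 were higher, whatever their promoter. Nfkb2, Nfkbie and Tnip1 are named because of the match. The genes of the 6 promoters, Nfkb2, Rel, Nfkbia, Nfkbie, Tnfaip3 and Tnip1, were each higher in LP cells. Of these, 4 are printed as the 250 bases before the most upstream start in GRCm38.p6, 5' to 3' on the gene's strand, with motif matches in capitals, for Nfkb2 at chr19:46304487-46304736 (plus strand), Rel at chr11:23770970-23771219 (minus), Nfkbia at chr12:55492648-55492897 (minus) and Tnfaip3 at chr10:19015411-19015660 (minus).
Nfkb2: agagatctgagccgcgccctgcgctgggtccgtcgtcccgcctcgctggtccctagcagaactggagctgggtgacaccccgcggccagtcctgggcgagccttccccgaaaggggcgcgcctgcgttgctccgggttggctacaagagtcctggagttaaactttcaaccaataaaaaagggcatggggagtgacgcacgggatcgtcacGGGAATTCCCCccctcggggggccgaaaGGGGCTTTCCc
Rel: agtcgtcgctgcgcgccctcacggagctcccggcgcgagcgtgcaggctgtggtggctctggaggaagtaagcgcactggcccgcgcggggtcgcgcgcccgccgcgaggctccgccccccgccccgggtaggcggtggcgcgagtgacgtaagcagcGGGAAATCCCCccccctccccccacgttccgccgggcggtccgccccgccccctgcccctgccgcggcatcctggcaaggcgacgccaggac
Nfkbia: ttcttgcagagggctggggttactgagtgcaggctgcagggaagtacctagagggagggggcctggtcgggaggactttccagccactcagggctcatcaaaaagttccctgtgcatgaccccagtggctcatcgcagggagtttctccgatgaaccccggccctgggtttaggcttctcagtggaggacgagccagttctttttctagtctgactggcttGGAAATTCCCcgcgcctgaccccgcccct
Tnfaip3: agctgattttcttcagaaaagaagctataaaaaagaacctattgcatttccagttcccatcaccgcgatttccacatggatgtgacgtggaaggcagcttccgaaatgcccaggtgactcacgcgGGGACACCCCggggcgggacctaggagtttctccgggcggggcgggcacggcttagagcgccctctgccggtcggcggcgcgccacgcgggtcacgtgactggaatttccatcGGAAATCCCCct
The match of Nfkbia begins 29 bases before the start, and those of Tnfaip3 begin 125 and 12 bases before it. Nfkb2 has 3 matches and Rel 2, of which a pair overlaps in each gene. A match describes letters and not binding, and its absence says only that these letters are not in the window.

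Genes of the AP-1, EGR and NR4A families respond to antigen receptor signals within minutes to hours. Most members of their list, which also holds genes that damp MAP kinase signals, were higher. Of 29 members 16 were higher, 3 lower and 10 did not pass, with a median of 1.60, and under all 4 scalings 16 were higher and 2 lower. Fosl2, a FOS family member, had 136 and 130, 116 and 112, and 10.2, a difference of 3.59 (SE 0.236, adjusted p = 0.0119). Nr4a2, an orphan nuclear receptor induced by antigen, had 31.5 and 36.2, 55.3 and 63.0, and 4.78, a difference of 3.22. The CXCR6- arrays were the higher of the subsets for Nr4a2, the reverse of Fosl2. Nr4a3 rose by 2.40, Junb by 2.86 and Fos by 1.60. The call of Junb ended with the floor (limma adjusted p = 0.0705), and the mean of the Nr4a2 probe sets was 1.67. Egr1, induced early by the MAP kinase ERK, was 19.5 to 32.4 against 66.1, and its difference of -1.35 missed the threshold (limma adjusted p = 0.0626).

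From the same list, genes that damp MAP kinase signals are named for the size of their differences. Dusp4, a nuclear phosphatase of MAP kinases, had 48.0 and 30.3, 19.1 and 13.4, and 1.59, a difference of 3.96 (SE 0.419, adjusted p = 0.0146). Spry2, an inhibitor of receptor signaling to ERK, had 1.69 and 1.58, 1.53 and 2.02, and 26.2, a difference of -3.95 (SE 0.289, adjusted p = 0.0119). Dusp6, the cytoplasmic phosphatase of ERK, had 2.68 and 3.50, 2.31 and 1.83, and 13.9, a difference of -2.47. As the mean of probe sets Spry2 was at -1.92. The LP arrays were thus high in Dusp4 and low in Spry2 and Dusp6. Dusp4 was retained through the LP arrays alone, so the rule fixed that all of them lay above the naive array. Spry2 and Dusp6 were retained through the naive array alone. Over all genes, 35.0% had every LP array above the naive array and 40.9% every LP array below it. Of 25 genes of dissociation and heat shock, some of which are AP-1 genes of the same list, 12 were higher and 0 lower, with a median of 1.47. The heat shock gene Hspa1a had 215 and 71.3, 276 and 96.2, and 2.31, so replicate 1 of each subset was the higher. Handling differed between colon and spleen, and its part in the AP-1 genes was not tested.

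Single genes of cell survival and death differed in direction. Of 20 members, 18 of them retained, 9 were higher, 5 lower and 6 did not pass, with a median of 0.92. Under all 4 scalings 8 were higher and 3 lower. Over all genes 15.1% were higher and 18.8% lower, and of the retained genes 33.1% were lower. The lower members are thus not read as a direction of the list. Among genes that promote death, Bcl2l11, which encodes BIM, had 278 and 262, 219 and 228, and 24.0, a difference of 3.35 (SE 0.238, adjusted p = 0.0119). Pmaip1, which encodes the related protein NOXA, had 42.7 and 40.5, 35.1 and 24.7, and 7.16, a difference of 2.29. Bid and Bak1, which act in permeabilizing mitochondria, ran the opposite way. Bid had 0.811 and 0.967, 0.976 and 1.44, and 28.1, and Bak1 1.21 and 1.37, 1.27 and 1.28, and 20.6, and they fell by 4.78 and 4.01. Among protective genes, Gadd45b, a stress protein induced by NF-kB, rose by 3.74 with 70.4 to 127 against 7.55. Bcl2 rose by 2.04 and Bcl2l1, which encodes BCL-XL, by 1.41, but as the mean of probe sets their differences were -0.23 and -0.39, and 0 of the 4 other Bcl2 probe sets had the direction of the one used. Both calls also ended with the floor, and that of Bcl2l1 with the LP arrays as 1 group. The mean of the Gadd45b probe sets was 1.51 and did not pass (limma adjusted p = 0.0537).

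Single inhibitors of the cell cycle differed in direction. Of 20 genes of CDK inhibition and quiescence 7 were higher, 4 lower and 9 did not pass (median 0.58), with 6 higher and 1 lower under all 4 scalings. Over all genes 15.1% were higher and 18.8% lower by limma, and 11.3% and 9.38% under all 4 scalings. The lower share of the list was near that of all genes by limma and is not read as a direction of the list. Cdkn1a, which encodes p21, had 67.7 and 56.2, 31.5 and 37.9, and 2.91, a difference of 3.99 (SE 0.282, adjusted p = 0.0119). Cdkn1b, which encodes p27 and keeps naive T cells from dividing, had 25.4 and 17.4, 17.2 and 14.2, and 75.6, a difference of -2.06. The LP arrays were high in the first and low in the second. Foxo3, a quiescence factor of resting lymphocytes, fell by 3.51 with 6.2 to 8.47 against 77.8. Tsc22d3, the glucocorticoid induced protein GILZ, rose by 2.50, and Btg2, an antiproliferative gene that is also on the dissociation list, by 2.38. With the mean of probe sets neither passed, Tsc22d3 at 0.42 (limma adjusted p = 0.4) and Btg2 at 1.73 (adjusted p = 0.0516). The call of Cdkn1b ended with arrays centered on all genes (-1.51) or on the retained genes (-1.33) and with the floor.

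Of 29 cell cycle genes 3 were higher, 7 lower and 19 did not pass, with a median of -0.33 that turned to 0.03 with quantile normalization. Over all genes 15.1% were higher and 18.8% lower. Birc5, which encodes the mitotic protein survivin, had 8.62 and 6.40, 7.41 and 8.06, and 75.3, a difference of -3.31 (SE 0.298, adjusted p = 0.0127). The higher level was thus on the array of naive cells. Dividing red cell precursors also express Birc5, and the 16 red cell genes above were higher on that array. Their part was not tested.

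Genes of MYC and ribosome biogenesis were mostly lower. MYC drives growth of activated T cells through genes of the nucleolus. Of 26 members, 24 of them retained, 15 were lower, 2 higher and 9 did not pass. The median was -1.53 against -0.14 for all genes and -0.65 for the retained genes, of which 33.1% were lower. Under all 4 scalings 7 members were lower and 2 higher. Myc had 5.40 and 3.95, 5.57 and 4.11, and 15.1, a difference of -1.68 (SE 0.35, adjusted p = 0.0376). Its partner Max had 2.12 and 1.01, 0.173 and 0.556, and 60.3, a difference of -6.48, or -5.06 with 1 added to the signals. Every LP array was below the naive array for both. The call of Myc ended with quantile normalization (-0.93, limma adjusted p = 0.163), with arrays centered on all genes (-1.13) or on the retained genes (-0.95) and with the floor. Of the nucleolar genes, Nop56, a ribosomal RNA methylation factor, fell by 1.82, Wdr12, a factor of the large subunit, by 2.26 and Dkc1, the pseudouridine synthase dyskerin, by 1.72. Cad, the enzyme that opens pyrimidine synthesis, fell by 2.93 with 2.10 to 3.35 against 21.01. Nop56 did not pass with the floor (adjusted p = 0.0527), and Wdr12 (adjusted p = 0.0788) and Cad (adjusted p = 0.0855) did not with the mean of probe sets. Odc1, a classic MYC target that opens polyamine synthesis, was an exception, with 245 and 295, 245 and 219, and 49.6, a difference of 2.33. Of 27 cytosolic ribosomal proteins 6 were higher, 3 lower and 18 did not pass, and their median of 0.70 turned to -0.27 with quantile normalization.

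Genes of sterol and fatty acid synthesis were lower in a narrower set. All 21 members were retained, and the retained genes had a median of -0.65 with 33.1% lower. Of the 21 members 8 were lower, 1 higher and 12 did not pass, with a median of -1.02. Under all 4 scalings 5 members were lower and 1 higher. Scd1, which desaturates fatty acids, had 0.891 and 2.10, 1.45 and 1.60, and 42.3, a difference of -4.87 (SE 0.563, adjusted p = 0.0156). Srebf2, the master factor of cholesterol synthesis, had 3.53 and 2.98, 1.89 and 2.79, and 32.1, a difference of -3.56. The sterol sensor Insig1 had 5.18 and 6.58, 5.48 and 4.54, and 73.0, a difference of -3.76. Every LP array lay far below the naive array for all 3. Dhcr7, the last enzyme of cholesterol synthesis, fell by 3.65, and Fads2, a desaturase, by 4.06, or 2.84 lower with 1 added to the signals. Sqle, squalene epoxidase, was the 1 member that rose, by 1.02 with 13.6 to 18.9 against 7.71 (adjusted p = 0.0498). Its call ended with averaged probe sets, without _s_at and _x_at probe sets and with the LP arrays as 1 group (limma adjusted p = 0.0624, 0.0527 and 0.0607). The mean of the Scd1 probe sets was -2.90.

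Chromatin and DNA methylation enzymes were mostly lower. Of 19 members, 18 of them retained, 10 were lower, 2 higher and 7 did not pass. The median was -1.19 against -0.65 for the retained genes, of which 33.1% were lower. Under all 4 scalings 6 members were lower and 2 higher. Dnmt1, which maintains DNA methylation, had 22.4 and 25.3, 18.1 and 23.9, and 84.95, a difference of -1.93. Dnmt3a, which sets methylation anew in effector T cells, had 3.25 and 3.16, 3.79 and 3.86, and 17.6, a difference of -2.33 (SE 0.235, adjusted p = 0.0141). All 4 other Dnmt3a probe sets had the same direction, with a mean of -1.45 over all of them. Without _s_at and _x_at probe sets Dnmt1 was at -0.42 and did not pass (limma adjusted p = 0.262). Kmt2a, a histone methyltransferase, fell by 1.77. Kdm6b, which removes the repressive H3K27 methyl mark, had 177 and 158, 88.8 and 75.0, and 0.283, a difference of 8.69 (SE 0.264, adjusted p = 0.0119), or 6.52 with 1 added to the signals, and 1 of its 2 other probe sets went the other way, with a mean of 3.70 over the set. Of the TET enzymes, which oxidize methylated cytosine, Tet1 was 0.038 to 0.343 against 4.54 and fell by 5.08, or 2.24 with 1 added to the signals. Tet2 was 35.2 to 49.5 against 8.23 and rose by 2.30, but its mean over probe sets was -0.072.

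Of 27 cytokine receptors, 22 of them retained, 8 were higher, 7 lower and 12 not past the test (median -0.07, or 0.61 with quantile normalization). Over all genes 15.1% were higher and 18.8% lower, and of the retained genes 33.1% were lower. The lower members are thus not read as a direction of the list. Under all 4 scalings 5 were higher and 3 lower. Il1r2, the decoy receptor of IL-1, had 45.5 and 38.6, 34.9 and 19.7, and 1.14, a difference of 4.86 (SE 0.425, adjusted p = 0.0125). Ifngr1, the ligand binding chain of the IFN-gamma receptor, had 102 and 141, 95.7 and 93.6, and 12.4, a difference of 3.10. Both were high on all LP arrays. Il21r rose by 1.84 and Tgfbr2, the signaling receptor of TGF-beta, by 1.08. Il27ra, through which IL-27 restrains effector cells, had 16.2 and 21.1, 15.3 and 12.7, and 63.3 and fell by 1.98. Il2rb, the shared beta chain for IL-2 and IL-15, had 14.7 and 7.78, 4.74 and 5.21, and 32.2 and fell by 2.14. Il2rb did not pass with the mean of probe sets (-1.48), quantile normalization (-1.57), either centering (-1.59 and -1.41), the floor or the LP arrays as 1 group. Tgfbr2 did not pass with the mean of probe sets (0.83), without _s_at and _x_at probe sets or with the LP arrays as 1 group. NK cells carry Il2rb at high levels, and Ncr1 was higher on the naive array. Il1r2 is also a gene of neutrophils and macrophages, and neither source was tested.

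Of 15 regulatory and IL-10 genes 2 were higher, 3 lower and 10 did not pass, against 15.1% higher and 18.8% lower over all genes, with a median of -0.24, or 0.50 with quantile normalization. Foxp3, the factor that defines regulatory T cells, had 0.327 and 0.459, 0.913 and 0.816, and 9.60, a difference of -4.05 (SE 0.316, adjusted p = 0.012), or -2.72 with 1 added to the signals. Izumo1r, which encodes the folate receptor 4 of regulatory and naive cells, had 2.92 and 2.13, 5.94 and 5.95, and 48.5 and fell by 3.65. In both, the CXCR6+ arrays were the lowest. Ctla4, an inhibitory receptor of regulatory and activated cells, had 250 and 256, 196 and 137, and 19.2, a difference of 3.41. Tnfrsf4, which encodes the costimulatory receptor OX40, rose by 2.94 with 72.1 to 142 against 14.3. From the costimulation list, Tnfsf11, which encodes the TNF family ligand RANKL, rose by 2.85 with 62.0 to 150 against 13.4.

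Of 22 receptors and regulators of G protein signaling 11 were higher, 3 lower and 8 not past the test (median 0.79). Under all 4 scalings 11 were higher and 3 lower. Over all genes 15.1% were higher and 18.8% lower by limma, and 11.3% and 9.38% under all 4 scalings. The lower share of the list by limma did not exceed that of all genes. Rgs1, which damps chemokine receptor signals, had 200 and 254, 166 and 190, and 23.9, a difference of 3.07 (SE 0.285, adjusted p = 0.013). Rgs2 had 258 and 256, 283 and 190, and 31.7, a difference of 2.95. Rgs19, of the same family, ran the other way with 11.3 and 12.6, 9.87 and 9.91, and 55.5, a difference of -2.35. Ptger2, a receptor of prostaglandin E2, rose by 2.31. In the purine pathway, Entpd1, the ectoenzyme CD39 that degrades extracellular ATP, rose by 2.14 with 8.37 to 9.70 against 2.02, and P2rx7, the ATP gated channel, fell by 2.92 with 3.55 to 8.95 against 38.1. With the mean of probe sets Rgs2 (2.66, limma adjusted p = 0.0526) and P2rx7 (-1.28, adjusted p = 0.0551) did not pass.

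Interferon response genes were counted beside the same shares. Of 26 members 8 were lower, 1 higher and 17 did not pass, where 12023 of all 18193 genes did not pass. Of the 26, 22 were retained, and 33.1% of the retained genes were lower with a median of -0.65. The list had a median of -0.72, and under all 4 scalings 3 of it were lower and 1 higher. When arrays were centered on the retained genes the list median became 0.01, so a common shift depended on the scaling. Usp18, which limits type I interferon signaling, had 1.71 and 2.38, 1.53 and 2.13, and 28.8, a difference of -3.92 (SE 0.365, adjusted p = 0.013). Mx1, an antiviral GTPase, fell by 2.25 and Irf9, the DNA binding part of the interferon complex, by 1.79. Each was lower on all 4 LP arrays.

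Metabolic and stress genes did not move as blocks. Over all genes 15.1% were higher and 18.8% lower. Of 23 glycolysis and hypoxia genes 5 were higher and 0 lower by limma (median 0.24), and 5 were higher under all 4 scalings. Pgk1, an enzyme of glycolysis, rose by 3.41 with 284 to 349 against 29.6, Hk2, the inducible hexokinase, by 2.40, and Egln3, a hypoxia induced prolyl hydroxylase, by 3.66. Pgk1 was at 0.63 without _s_at and _x_at probe sets (limma adjusted p = 0.148), the mean of the Egln3 probe sets was 1.61, and Hk2 did not pass with the floor (adjusted p = 0.0758). Of 31 respiratory chain genes 5 were higher, 4 lower and 22 did not pass (median -0.06, or 0.06 with quantile normalization). Of 26 genes of the unfolded protein and amino acid stress responses 7 were higher and 8 lower. Of the endoplasmic reticulum genes named here, the transcription factor Xbp1 rose by 2.72, the chaperone Hspa5 by 1.95 and the sensor kinase Eif2ak3 by 2.21. Of the amino acid genes, asparagine synthetase, Asns, fell from 44.0 to 3.93 to 5.47 and the amino acid transporter Slc7a5 from 27.8 to 4.37 to 6.07. As the mean of probe sets Xbp1 (0.70, limma adjusted p = 0.181) and Eif2ak3 (0.81, adjusted p = 0.227) did not pass. Xbp1 is also a factor of plasma cells and secretory epithelium, whose part was not tested.

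Other T cell lists were counted in the same way, beside shares of 15.1% higher and 18.8% lower over all genes. Of 16 genes of TGF-beta signaling 3 were higher and 2 lower (median -0.15, or 0.37 with quantile normalization), among them the SMAD corepressors Tgif1, which rose by 2.73, and Skil, which rose by 1.26. Of 21 cytotoxic genes 4 were higher and 1 lower, and Gzmk, a granzyme of effector memory cells, had 31.5 and 54.2, 90.6 and 133, and 5.20, a difference of 3.70. The CXCR6- arrays were the higher for Gzmk. Serpinb9, the inhibitor of granzyme B, rose by 2.69, but the mean of its probe sets was 1.29 (limma adjusted p = 0.0689). Of 18 integrin and adhesion genes 7 were higher and 2 lower, of 20 genes of costimulation 8 and 3, of 16 of inhibitory receptors 7 and 2, and of 14 Th1 genes 5 and 1. Of 24 genes of proximal T cell receptor signaling 4 were higher and 2 lower, with a median of 0.12.

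**Figure D4:**
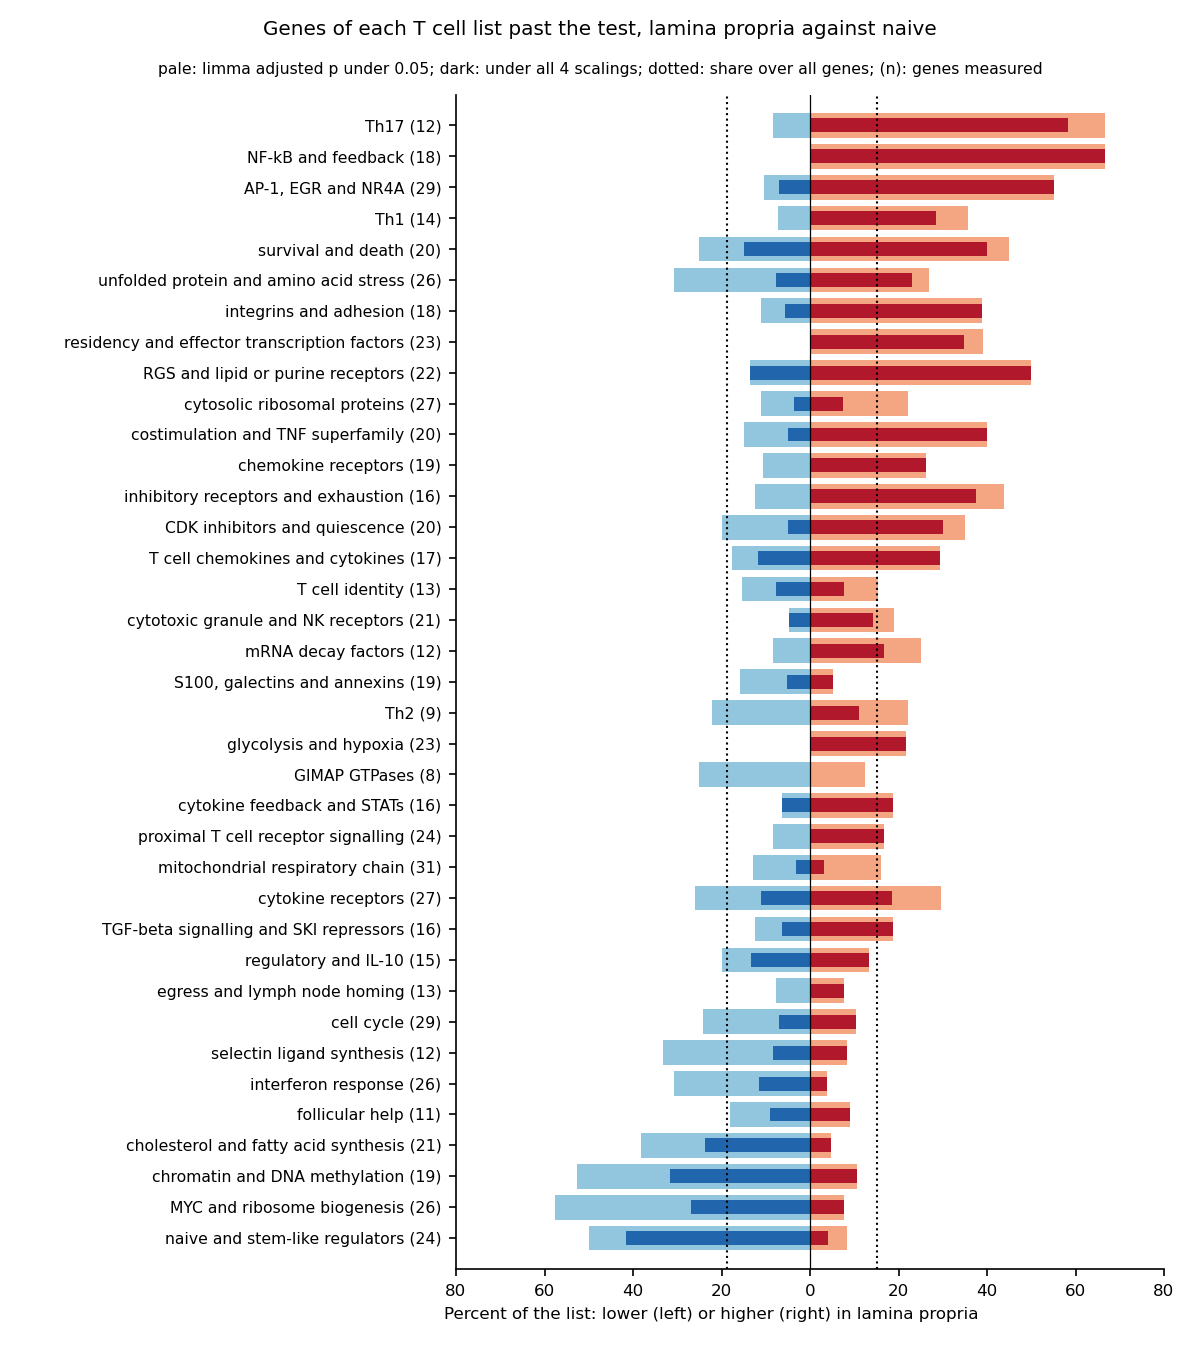
Percent of the measured genes of each T cell list that were lower (left) or higher (right) in LP than in naive cells by limma (pale) and under all 4 scalings (dark), with dotted lines at the shares over all genes, 18.8% and 15.1%. The Th17, NF-kB and AP-1 lists extend farthest to the right, and the naive, MYC and chromatin lists extend far to the left.

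**Figure D5:**
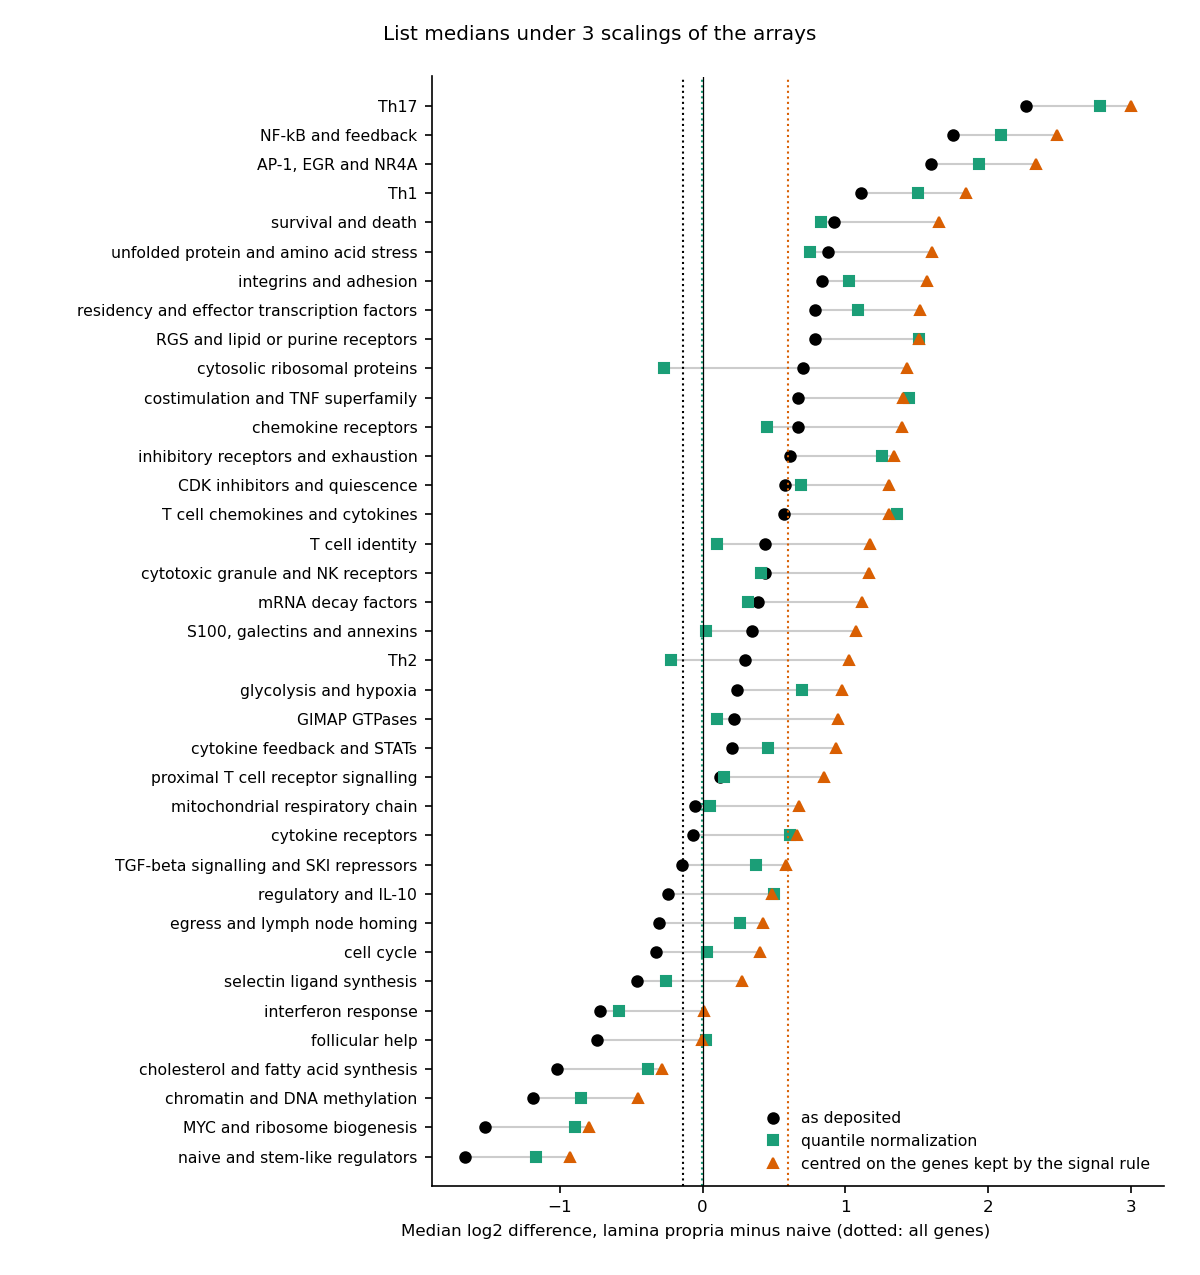
Median log2 difference of each T cell list, LP minus naive, as deposited (circles), with quantile normalization (squares) and with arrays centered on the retained genes (triangles), with dotted lines at the medians of all genes. The Th17, NF-kB and AP-1 lists lie above 1 and the naive, MYC, chromatin and cholesterol lists below 0 under each, while ribosomal proteins, cytokine receptors and several others change sign between scalings.

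The subsets were set against the same naive array, so their values stand side by side and share its error. Of 635 T cell list genes, 278 passed for the mean of both subsets, where 15.1% of all genes were higher and 18.8% lower. Of the 278, 184 passed in each subset in the same direction, 51 in CXCR6+ cells only, 31 in CXCR6- cells only and 12 in neither. The sign was the same in both for 277. As the 278 were picked on the mean of both subsets against 1 shared array, this agreement was largely fixed. It does not show that the subsets are alike. Over all genes, 13.2% were higher and 15.3% lower in CXCR6+ cells, and 12.8% and 16.7% in CXCR6- cells. The NF-kB list had 13 higher in CXCR6+ and 9 in CXCR6- cells, with medians of 1.92 and 1.43. The naive list had 12 and 11 lower, with medians of -1.81 and -1.37. A pass in 1 subset only does not show a difference, and between the subsets 0 of 18193 genes passed by limma (1191, or 6.55%, at an unadjusted p under 0.05).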

How the data were processed

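RNA of 5 sorted T cell samples (3'-IVT Express Kit) was hybridized to Affymetrix whole mouse genome arrays. The intensity values, as deposited by the authors, are linear signals scaled to an array median of 1.0. The methods name GeneSpring and the submitters' notes RMA, and the values are not quantile normalized. Background correction is not given in the sources used here, and the RNeasy kit of the labels is not that of the methods. Precision is limited by the number of arrays.

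Of 45101 probe sets, 34945 carried 1 gene symbol, 932 several and 9160 none, 64 controls were left out, and 34741 matched RefSeq. Each of 18193 genes was represented by its brightest probe set, and 9010 genes had a choice of several. The 2 signals of 0 were set to 0.001 before log2.

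A model of 3 groups was fitted in R 4.3.3 with the lmFit and eBayes functions of limma 3.58.1 (2 residual and 1.68 prior degrees of freedom), with two-sided p-values, and was tested on simulated data. Adjusted p-values are Benjamini-Hochberg over all genes. Figures used matplotlib 3.10.9 in Python 3.11.15.

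The members and the 46 gene lists were chosen with earlier results of these data known. Named were the 4 markers and, per list, the members with the largest differences past the test and defining members. The sets of red cell, granulocyte and innate genes, and Nfkb2, Nfkbie and Tnip1, were chosen after their values were seen. In the lists, 75 genes had no usable probe set. Some items are not reported here. The 17 alternatives concerned probe sets, scaling, low signals, the variance model, the replicate block, single arrays and the methods' t-test.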

Additional observations from a re-analysis of the deposited data

Results flagged for a closer look

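Of the 635 T cell list genes, 10 retained ones had the CXCR6+ arrays on 1 side of the naive array and the CXCR6- arrays on the other. Each had an unadjusted limma p under 0.05 between the subsets. None passed after adjustment over all genes (limma adjusted p from 0.525 to 0.754). How many of all 18193 genes met both conditions was not counted. Between the subsets 6.55% of all genes had an unadjusted limma p under 0.05, so the 10 genes are listed and not read as a result. The log2 differences below are CXCR6+ minus CXCR6-. Il2ra, the alpha chain of the IL-2 receptor, differed by 2.11 and Ltb, which encodes lymphotoxin beta, by 1.64. Ctsw, a protease of cytotoxic lymphocytes, differed by 1.33 and Slc2a3, a glucose transporter, by 1.16. The kinases Pim1 and Pim2, which promote survival, differed by 0.865 and 0.839. Psmb8, an immunoproteasome subunit, differed by 0.883 and Ccnd2, a cyclin of cell cycle entry, by 0.627. Eomes, a T-box factor of cytotoxic and memory cells, differed by -3.61, with CXCR6+ signals of 1.38 and 2.32 and CXCR6- signals of 13.02 and 36.5. Slamf6, a receptor of stem-like and follicular T cells, differed by -1.01.

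The Dap poly-A control, which is no mouse gene, had a lowest signal of 95.5 on an LP array and 0.191 on the naive array, so the labeling controls were not the same in both preparations.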

How the results depend on the processing

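As reported, 2756 genes were higher and 3414 lower in LP cells. Fitting the retained genes alone gave 1631 higher and 4257 lower, and quantile normalization 2806 and 2171. Centering arrays on their median over all genes gave 4331 and 2189, and centering on the retained genes, chosen after seeing the data, 5077 and 1891. A floor at a signal of 1 gave 1068 and 3321, and the signal plus 1 gave 2817 and 5086. The replicate block, which leaves 1 residual degree of freedom, gave 1705 and 1807. The replicate numbers were not taken as pairs, since only 2 pairs exist, with same-numbered deviations correlated at 0.019 over all genes and 0.194 over the retained genes. Leaving out 1 LP array gave 0 to 999 higher and 0 to 939 lower, with 0 without either CXCR6- array (the cause was not tested). The methods' t-test gave 2027 and 2669 after Benjamini-Hochberg and 7836 at its unadjusted threshold. With the mean of probe sets 4 named genes changed sign, Id2 to -0.274, Bcl2l1 to -0.387, Bcl2 to -0.23 and Tet2 to -0.072, and the cause was not tested. Of the 107 named genes that passed, 77 also passed with the replicate block, 78 with the methods' t-test, 80 with the mean of probe sets, 89 with the floor, and 44 and 47 without CXCR6+ replicate 1 or 2. Among called genes with other probe sets, all of these had the same direction for 50.6% of the higher and 63.1% of the lower genes. Signals below the array median are dim, and their log2 differences are overstated relative to those with 1 added to the signal.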
